A study of Macaca mulatta with 49 samples.

Results

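The genes described here encode the machinery of mitochondrial oxidative phosphorylation, measured in central memory T cells (TCM) of rhesus macaques. They were chosen by name: symbols that begin with NDUFA, NDUFB, NDUFC, NDUFS, NDUFV, UQCR, ATP5 or the prefixes of cytochrome c oxidase subunits, together with SDHA, SDHB, SDHC, SDHD and CYC1. Of 94 such genes with a probe, 69 had a probe detected above background (detection p below 0.05) in 6 or more of the 24 CD8 or of the 24 CD4 samples, and these 69 are the members. All genes detected in this way numbered 9355. The members comprised 35 genes of complex I (28 subunits and 7 assembly factors), 3 of complex II, 6 of complex III, 9 of complex IV, 14 of ATP synthase and 2 pseudogenes.

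Complexes I to IV of the inner mitochondrial membrane pass electrons from NADH and succinate to oxygen and, except for complex II, pump protons as they do so. ATP synthase lets the protons back through its membrane part Fo and makes ATP in its catalytic part F1. Memory T cells draw on this route at rest, and in mouse CD8 T cells interleukin 15 (IL-15) is known to favour mitochondrial respiration. The genes measured here are nuclear; the subunits encoded by mitochondrial DNA are not among them.

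CD8 and CD4 TCM were sorted from the blood of 12 macaques before and after treatment. An antibody against IL-15 was given to 6 animals and an IgG1 control antibody to the other 6, which makes 8 groups of 6 samples. The labels state no dose, no interval after treatment and no age. Total RNA was amplified and hybridised to human Illumina BeadChips, so sequence differences can lower a signal and an undetected probe does not show a silent gene.

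The 48 samples were run on 49 arrays, with 1 CD8 sample hybridised 2 times. Between 11448 and 13720 probes were detected on CD8 arrays and between 11993 and 14870 on CD4 arrays. The sorted cells numbered 23000 to 116000 for CD8 and 197000 to 958000 for CD4, so cell type and sorted number cannot be told apart. The identity of the sorts was checked on CD8A, whose mean log2 intensity was 12.94 in CD8 and 5.61 in CD4 samples, whereas the CD4 probe was detected in 0 CD8 and 1 CD4 samples and checks nothing. Anti-IL-15 animals 3 (both CD4 arrays) and 4 (the CD8 array after treatment) had arrays that stood apart within their cell type, and counts without these animals are given where they bear on a result. Levels below are log2 intensities after background correction and quantile normalization. Because probes differ in efficiency, levels of different genes are not compared.

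CD8 and CD4 TCM differed in many of these genes before treatment, and mostly in the direction of CD8. Of the 69 members, 22 were higher in CD8 and 7 were lower (limma with the animal as a block, adjusted p below 0.05 over 9355 genes). The members called were 42% of all members, against 36.1% of all genes tested. By direction, 31.9% of members against 15.3% of all genes were higher in CD8, and 10.1% against 20.8% were lower. The median difference of the members was 0.11 on the log2 scale and that of all genes was 0.01. Without anti-IL-15 animals 3 and 4, 20 members were higher and 7 lower. The share of all genes called in that fit was not computed.

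Complex IV, cytochrome c oxidase, hands the electrons to oxygen. All 9 of its members had a positive difference, 6 of them past the threshold, and its median difference was 0.36. COX7B, a small nuclear-encoded subunit of the enzyme, ran from 7.56 through a median of 8.19 to 9.24 in the 12 CD8 samples and from 7.12 through 7.45 to 7.65 in the 12 CD4 samples. It was higher in CD8 in 12 of 12 animals although the ranges of the cell types overlapped. The difference was 0.81 ± 0.14 (moderated SE, n = 12 animals), or 1.75-fold (adjusted p = 0.00012).

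COX7C, another small subunit, spanned 7.62 to 9.95 in CD8 with a median of 8.61, and 7.19 to 8.52 in CD4 with a median of 7.96. It too was higher in each of the 12 animals, by 0.74 ± 0.15 (adjusted p = 0.000804). COX6C, COX5B and COX4I1, the last of them the isoform of subunit 4 found in most tissues, were higher by 0.42, 0.36 and 0.26. COX7A1, the isoform known from heart and skeletal muscle, was detected in 9 of 12 CD8 samples and 1 of 12 CD4 samples and differed by 0.57 ± 0.14 (adjusted p = 0.00281). Its related gene COX7A2L, which takes part in supercomplex assembly, had a difference of 0.19 (adjusted p = 0.109). COX5A, with 0.03, and COX6A1, with 0.29, did not pass the threshold either.

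**Figure D1:**
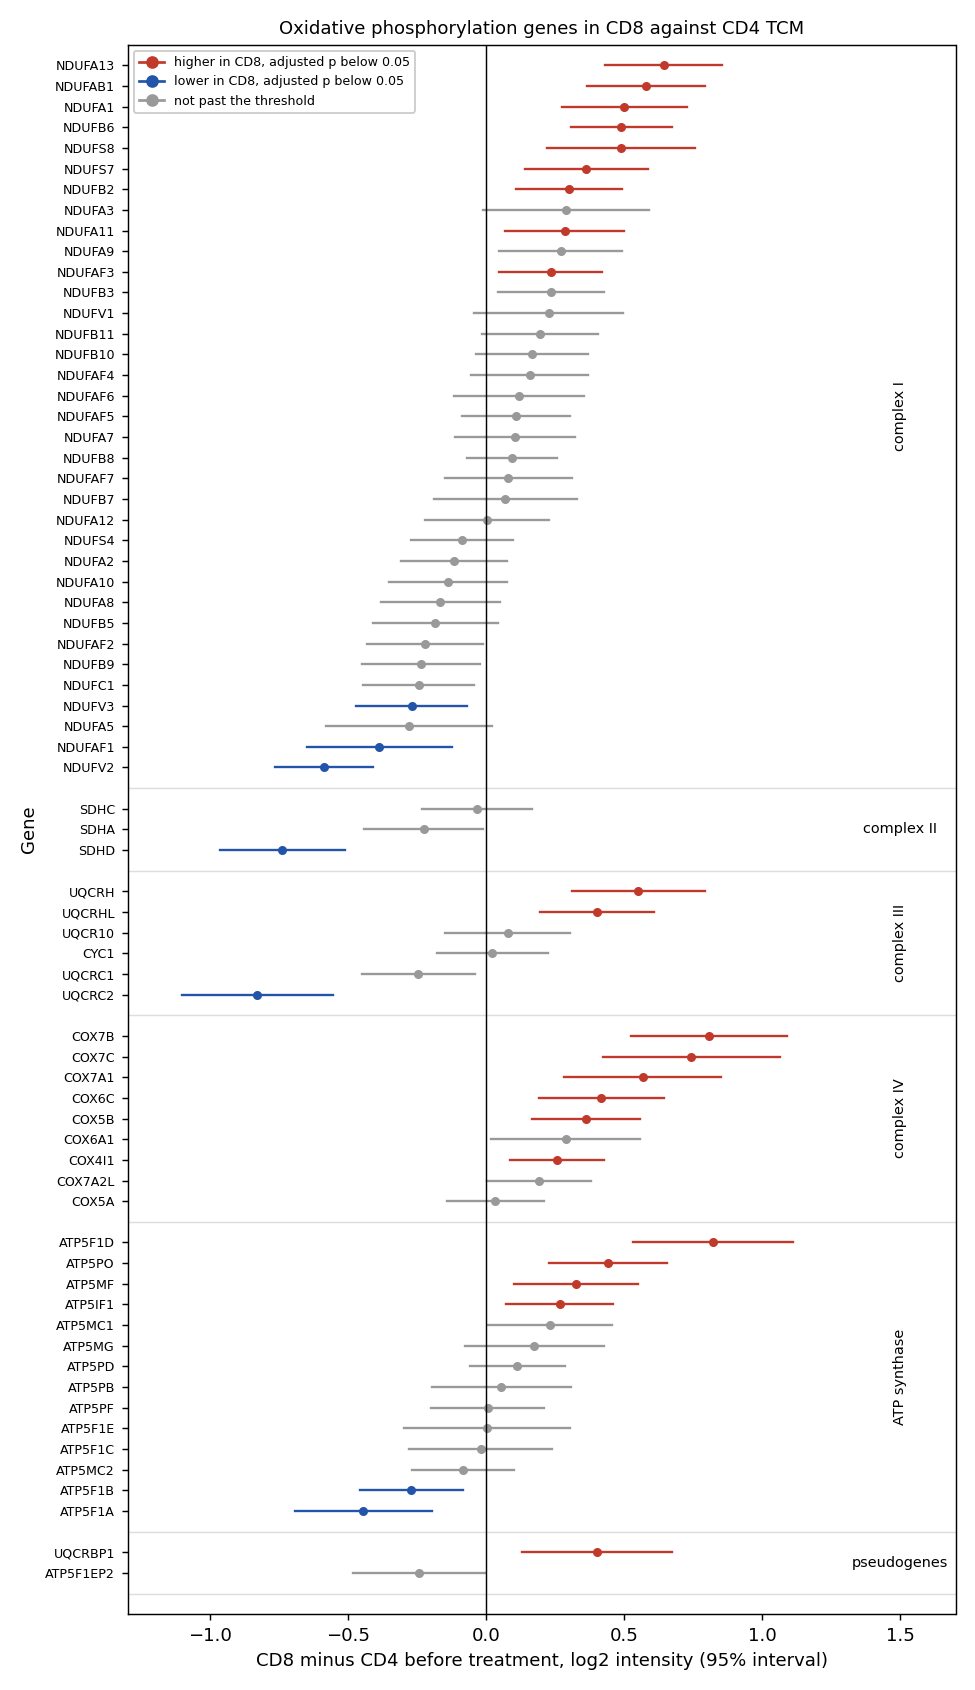
The horizontal axis shows the fitted CD8 minus CD4 difference in log2 intensity before treatment with its 95% interval (n = 12 animals), for each of the 69 members on the vertical axis, grouped by complex. The 22 members higher in CD8 are red, the 7 lower are blue and the remaining 40 are grey; all 9 points of complex IV lie to the right of 0.

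ATP synthase had members in both directions, 2 of 8 in Fo and the stalks higher and, of 5 in F1, 1 higher and 2 lower. ATP5F1D, the delta subunit of the central stalk of F1, ran from 9.80 to 10.66 in CD8 (median 10.11) and from 8.74 to 9.88 in CD4 (median 9.42). Only the top of the CD4 range reached into the CD8 range, and 12 of 12 animals were higher in CD8, by 0.82 ± 0.14 (1.77-fold, adjusted p = 0.000137). Its other detected probe gave 0.65. ATP5PO, the subunit that couples F1 to the peripheral stalk, and ATP5MF, a subunit of Fo, were higher by 0.44 and 0.33. ATP5IF1, a protein that inhibits the reverse reaction of the enzyme, was higher by 0.27.

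The alpha and beta subunits, which form the catalytic head of F1, were the 2 that were lower. ATP5F1A (alpha) spanned 11.74 to 12.55 in CD8 with a median of 12.39, and 11.80 to 13.02 in CD4 with a median of 12.84. It was lower in CD8 in 11 of 12 animals, by 0.45 on the log2 scale (-0.45 ± 0.12, adjusted p = 0.00567), the exception being anti-IL-15 animal 3. The dimmer of its probes gave 0.01, so the direction rests on the brighter one. ATP5F1B (beta) differed by -0.27 ± 0.09 (adjusted p = 0.0224). Among the c subunits of the Fo ring, ATP5MC1 (0.23) and ATP5MC2 (-0.08) did not pass, and the probe of ATP5MC3 was detected in none of the samples.

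Complex II, succinate dehydrogenase, links the respiratory chain to the tricarboxylic acid cycle. None of its 3 members was higher in CD8. SDHD, a membrane anchor of the complex, lay between 4.44 and 5.19 in CD8 (median 4.65) and between 4.92 and 5.82 in CD4 (median 5.55). It was detected in 2 of 12 CD8 and 10 of 12 CD4 samples, and 11 of 12 animals were lower in CD8, with anti-IL-15 animal 3 again the exception. The difference was -0.74 ± 0.11 (adjusted p = 3.51e-05). SDHA, the subunit that oxidises succinate, had -0.23 ± 0.10 (adjusted p = 0.0928) and -0.67 on its dimmer probe. SDHC, the other anchor, had -0.03 ± 0.10.

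In complex III, which passes electrons to cytochrome c, the core protein UQCRC2 was lower in CD8. It ran from 7.02 through 7.63 to 8.38 in CD8 and from 7.69 through 8.55 to 8.99 in CD4. Only anti-IL-15 animal 3 was not lower in CD8, and the difference was -0.83 ± 0.13 (1.78-fold lower, adjusted p = 7.2e-05). The partner core protein UQCRC1 had -0.25 ± 0.10 (adjusted p = 0.0547). CYC1, the cytochrome c1 subunit that carries the haem, had 0.02 ± 0.10.

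The hinge protein gene UQCRH was higher in CD8 by 0.55 ± 0.12 (adjusted p = 0.000904), but its dimmer probe gave 0.09. UQCRHL, a near-identical copy, was higher by 0.40, and a probe cannot be taken to part the copies. UQCRBP1, annotated as a pseudogene of the subunit gene UQCRB, was higher by 0.40. The probes of UQCRB itself did not pass the detection rule, so the source of that signal is uncertain. ATP5F1EP2, annotated as a pseudogene of ATP5F1E, had -0.25 (adjusted p = 0.102) and ATP5F1E had 0.00.

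Complex I oxidises NADH. Of its 4 core members, 2 were higher, 1 was lower and 1 did not pass. NDUFV2, an iron-sulfur subunit next to the NADH site, ran from 11.20 through 11.71 to 12.12 in CD8 and from 12.14 through 12.30 to 12.61 in CD4. Its ranges did not overlap, the only member of which this held (1.45% of members against 1.02% of all genes). It was lower in CD8 in 12 of 12 animals, by 0.59 on the log2 scale (-0.59 ± 0.09, adjusted p = 2.92e-05). NDUFS7 and NDUFS8, iron-sulfur subunits on the path to ubiquinone, were higher in CD8 by 0.36 and 0.49. NDUFV1, which binds NADH and flavin, had 0.23 (adjusted p = 0.188).

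Of the 24 accessory members of complex I, 6 were higher and 1 was lower. NDUFA13, which is also known as the cell death regulator GRIM-19, spanned 9.04 to 10.04 in CD8 (median 9.50) and 8.55 to 9.15 in CD4 (median 8.83). It was higher in 12 of 12 animals, by 0.64 ± 0.10 (adjusted p = 7.1e-05). NDUFB6, of the membrane arm, was also higher in every animal, by 0.49 ± 0.09, and by 0.47 on its other probe. NDUFAB1, the mitochondrial acyl carrier protein, was higher by 0.58 and NDUFA1 by 0.50. NDUFV3 was lower (-0.27), but it was detected in 0 of 12 CD8 and 4 of 12 CD4 samples, which leaves no usable fold. Among the 7 assembly factors, NDUFAF3 was higher (0.23) and NDUFAF1 lower (-0.39).

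**Figure D2:**
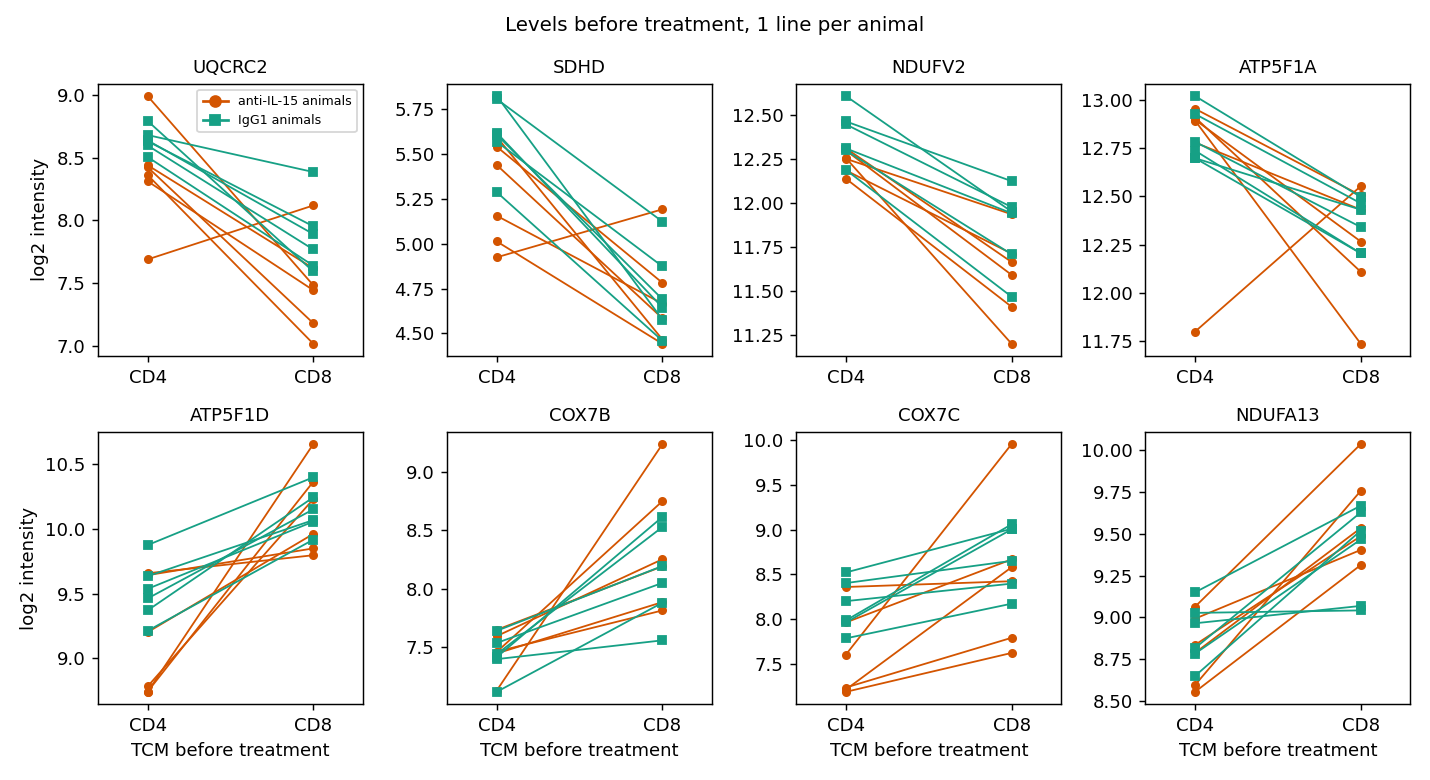
Each panel shows the log2 intensity of 1 member before treatment, with the CD4 and CD8 samples of an animal joined by a line (orange circles, 6 anti-IL-15 animals; green squares, 6 IgG1 animals). UQCRC2, SDHD and ATP5F1A go down toward CD8 in 11 of 12 animals and NDUFV2 in 12, while ATP5F1D, COX7B, COX7C and NDUFA13 go up in 12 of 12.

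In all, 6 members had the same direction in 12 of 12 animals before treatment, 8.7% of members against 7.65% of all genes: ATP5F1D, COX7B, COX7C, NDUFA13, NDUFB6 and NDUFV2. The size of the median shift differed between animals. The median member difference within an animal ran from -0.14 in IgG1 animal 3, with 24 of 69 members higher in CD8, to 0.31 in IgG1 animal 6, with 51 of 69 higher.

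The same comparison after treatment used other samples of the same animals. After anti-IL-15, 25 members were higher in CD8 and 4 lower, 42% of members against 24.6% of all genes (6 animals). The share higher was 36.2% against 9.8%, and the share lower 5.8% against 14.8%. After IgG1, 23 were higher and 5 lower, 40.6% against 30.2% of all genes. Here the share higher was 33.3% against 11.4%, and the share lower 7.25% against 18.8%. The median member difference was 0.27 after anti-IL-15 and 0.22 after IgG1. Without anti-IL-15 animals 3 and 4, the first of these comparisons had 17 members higher and 5 lower. The share of all genes was not computed there either.

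Each of the 29 members called before treatment kept its sign after both antibodies. The threshold was passed again by 22 of them after anti-IL-15 and by 22 after IgG1, with 19 passing both times. Over all genes, 1430 were higher and 1947 lower before treatment, of which 538 and 1055 passed in the same direction in all 3 comparisons. For the members these were 15 of 22 higher and 4 of 7 lower. The shares of all genes that kept their sign, or passed again after a single antibody, were not computed. In all 3 comparisons 15 members were higher, 21.7% against 5.75% of all genes, and 4 were lower, 5.8% against 11.3%. The 4 lower in all 3 were NDUFV2, SDHD, UQCRC2 and ATP5F1A. UQCRC2 differed by -0.94 ± 0.18 after anti-IL-15 and -0.73 ± 0.18 after IgG1, in 6 of 6 animals each, and anti-IL-15 animal 3 was then no exception. No post-treatment CD8 array detected SDHD in either antibody group, while 5 of 6 and 6 of 6 CD4 arrays did. Its level in CD8 was therefore at least 1.36-fold lower after anti-IL-15 (adjusted p = 0.000718) and at least 1.24-fold lower after IgG1 (adjusted p = 0.000537).

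ATP5F1D had a difference of 1.24 ± 0.16 after anti-IL-15 and 0.73 ± 0.16 after IgG1. COX7B had 1.21 ± 0.23 and 1.29 ± 0.23, and COX7C had 0.99 ± 0.13 and 1.00 ± 0.13. These 3 members were higher in CD8 in 6 of 6 animals of both antibody groups. COX7A1 was at least 1.53-fold higher in CD8 after anti-IL-15 (adjusted p = 0.00339), with 5 of 6 CD8 and 0 of 6 CD4 arrays detecting it. Some members passed after both antibodies and not before. ATP5MG, a subunit of Fo, had 0.17 before, 0.62 after anti-IL-15 and 0.62 after IgG1. NDUFA3 and NDUFB3, accessory subunits of complex I, were the others. For anti-IL-15, whether these differences changed with treatment was tested as the CD8 change minus the CD4 change, given further on, in which no member passed. For IgG1 this was not tested.

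**Figure D3:**
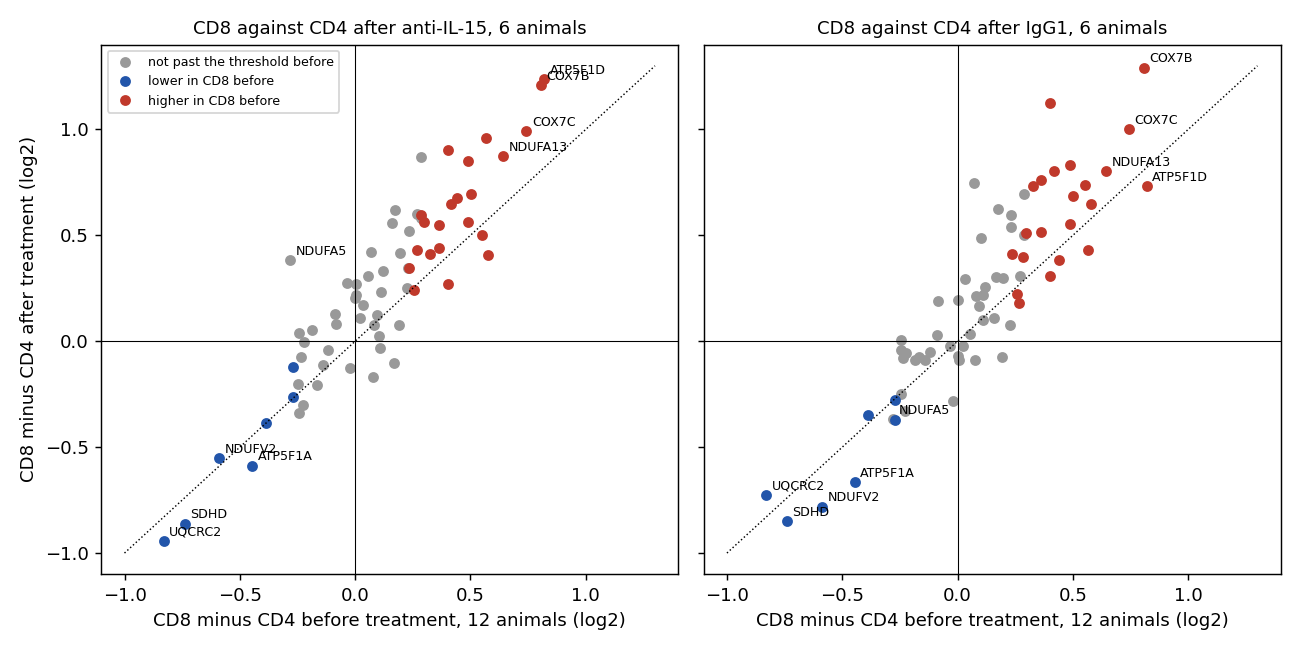
Both panels plot, for the 69 members, the fitted CD8 minus CD4 difference before treatment (horizontal, 12 animals, log2) against that after anti-IL-15 (left, 6 animals) or IgG1 (right, 6 animals); the dotted line marks equal values and colours give the call before treatment. The 29 coloured members lie on the same side of 0 on both axes in both panels, and UQCRC2, SDHD and NDUFV2 sit at the lower left.

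Other gene groups were read beside the members, against the 15.3% of all genes that were higher in CD8 before treatment and the 20.8% that were lower. Of 64 genes of the mitochondrial ribosome, 16 were higher in CD8 (25%) and 4 lower (6.25%), with a median of 0.12. MRPL53, a protein of its large subunit, was higher by 1.09 ± 0.14, and MRPL19, of the same subunit, was lower, being detected in 1 of 12 CD8 and 11 of 12 CD4 samples. Of 65 cytosolic ribosomal protein genes, 24 were higher (36.9%) and 1 was lower (1.54%), with a median of 0.18; RPL17 and RPL35 were higher by 0.74 and 0.90. Among 38 genes for assembly of the chain and its electron carrier, 6 were higher (15.8%) and 4 lower (10.5%). SDHAF1, an assembly factor of complex II, was higher by 0.66, and OXA1L, which inserts proteins into the inner membrane, was lower (-0.51). COX20, an assembly factor of complex IV, was detected in 0 of 12 CD8 and 10 of 12 CD4 samples and was at least 1.18-fold lower in CD8 (adjusted p = 6.2e-05). Of 15 genes of the tricarboxylic acid cycle and its entry, 2 were higher (13.3%) and 4 lower (26.7%). PDHA1 and MDH2 were higher by 0.56 and 0.52, and PDHX was lower (-0.66). Mitochondrial protein import (20 genes) had 4 higher (20%) and 5 lower (25%), among the latter the import receptor TOMM70 (-0.86). Regulators of mitochondrial biogenesis (18 genes) had 3 of each (16.7%), among them the mitochondrial RNA polymerase POLRMT, higher by 0.55.

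Genes listed as markers of other blood cells also differed between the sorts, where 15.3% of all genes were higher in CD8. Of 9 monocyte and dendritic cell markers tested, 5 were higher in CD8 before treatment and 0 lower, while S100A8 was detected in none. Their summed linear intensity ran from 1448 to 4482 in CD8 and from 1128 to 2627 in CD4 samples. CD68 was by far the brightest gene in that sum, with means of 10.69 in CD8 and 10.47 in CD4. Of 6 natural killer cell markers, 3 were higher (GNLY, KLRD1 and NCR3) and 0 lower. FCGR3A, which did not pass, had a mean of 8.26 in CD8 and 8.42 in CD4. The sums of the 6 ran from 649.2 to 1657 in CD8 and from 382.9 to 594.4 in CD4, and NCR1 and NCR2 were not detected. Of 4 B cell markers, 2 were higher, CD79B by 2.06 and CD79A by 0.61, and 0 lower. MS4A1 differed by 0.05 (limma, adjusted p = 0.74) and CD22 did not pass. Sums of the 4 ran from 253.5 to 635.3 in CD8 and from 78.13 to 208 in CD4. CD79B was the brightest of them in CD8, and PAX5 and BLK were not detected. None of 4 erythroid and 2 platelet markers passed, and erythroid sums ran from 176.6 to 27390 in CD8 and from 514.4 to 22140 in CD4. After anti-IL-15, where 9.8% of all genes were higher in CD8, this held for 6 of 9 monocyte and dendritic cell markers (median difference 1.33), 4 of 6 natural killer, 2 of 4 B cell, 2 of 4 erythroid and 0 of 2 platelet markers. After IgG1, with 11.4% of all genes higher, it held for 1 of 9 (median 0.41), 3 of 6, 3 of 4, 2 of 4 and 0 of 2. Of these lists 1 platelet marker was lower, after IgG1. Whether the T cells themselves expressed the listed genes was not tested, nor was the part of other cells in the differences of the members. In sorted bulk RNA, fewer cells of a type and less RNA per cell cannot be told apart.

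No member's change from before to after treatment passed the threshold in either cell type. The question was whether blocking IL-15, a cytokine on which memory CD8 T cells depend, moved these genes within an animal. In CD8 TCM after anti-IL-15, 0 of 67 members tested passed in limma (background 0.174% of 8614 genes), and 5 had an unadjusted p under 0.05, all of them higher, where 9.43% of all genes had one. After IgG1 in CD8, 0 of 67 passed (background 0%) and 5 had an unadjusted p under 0.05, 4 of them higher (7.01% of all genes). In CD4 TCM, 0 of 67 passed after anti-IL-15 (background 0.0336% of 8916 genes) and after IgG1 (background 0%), with 0 and 1 members at an unadjusted p under 0.05 (5.68% and 3.51% of all genes).

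The 95% intervals show how large a change could have gone unseen. After anti-IL-15, the interval lay within 0.5 either way for 43 of 67 members in CD8 and for 55 of 67 in CD4. It lay within 1, a 2-fold change, for 66 and 67 of them, the exception being NDUFA5 in CD8. After IgG1, the intervals of 35 CD8 and 54 CD4 members lay within 0.5. The median interval reached 0.33 to either side in CD8 and 0.32 in CD4.

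NDUFA5, an accessory subunit of the peripheral arm of complex I, had the lowest p of any member after anti-IL-15 in CD8. It ran from 4.51 through a median of 5.16 to 6.13 before and from 4.92 through 5.74 to 6.62 after the antibody, in ranges that overlapped. Its change was 0.66 ± 0.18 (unadjusted p = 0.00171, adjusted p = 0.188), higher in 5 of 6 animals, and -0.27 ± 0.18 after IgG1. The level was close to background, with 4 of 6 arrays detecting it before and 5 of 6 after, and the deposited values, which carry no background correction, gave a change of 0.26. The difference between the antibodies in its change was 0.93 ± 0.25 (adjusted p = 0.607).

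NDUFAF4, an assembly factor of complex I, was detected in CD8 on 0 of 6 arrays before and 5 of 6 after anti-IL-15; its level after was at least 1.21-fold that before and did not pass (adjusted p = 0.431). NDUFV2 had 0.33, NDUFB9 had 0.35 and NDUFB6 had 0.24, the last higher in 6 of 6 animals (adjusted p from 0.477 to 0.513). After IgG1 the lowest p values belonged to other members. They were ATP5MG with 0.49, NDUFA1 with 0.36, NDUFAF1 with -0.44, COX7B with 0.59 and NDUFB3 with 0.33, each with an adjusted p of 0.687. In CD4 after anti-IL-15, NDUFV2 (0.23), UQCR10 (0.26), SDHD (0.29), COX6C (-0.20) and UQCRHL (0.18) came first, with adjusted p of at least 0.882. In CD4 after IgG1, NDUFAF1 (-0.28), NDUFB5 (-0.37), COX5A (-0.19), UQCRBP1 (-0.36) and UQCRH (0.22) did, with an adjusted p of 1.00.

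**Figure D4:**
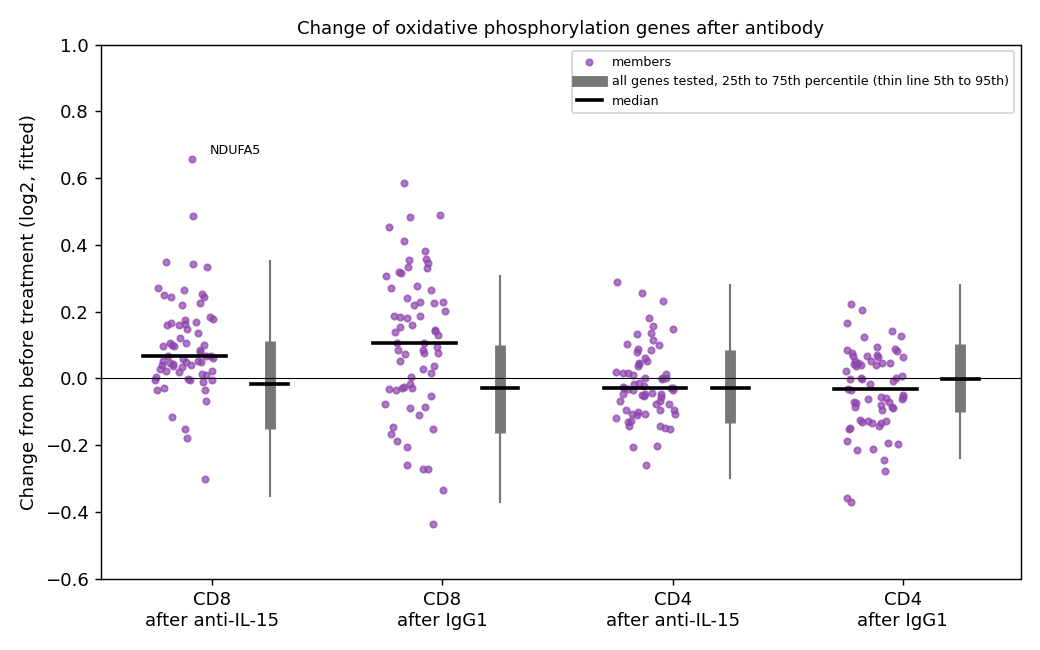
Points are the fitted log2 changes from before treatment of the 67 members tested in each cell type, for each antibody (6 animals each), and black lines their medians; grey bars give the 25th to 75th percentile of all genes tested and thin lines the 5th to 95th. The medians of the members lie at 0.07 and 0.11 in CD8 after anti-IL-15 and IgG1 and at -0.03 in CD4 after both; NDUFA5 is the highest point after anti-IL-15.

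The median change of the members in CD8 TCM was slightly above 0 after both antibodies. It was 0.07 after anti-IL-15, with 54 of 67 members positive, 80.6% against 45.8% of all genes. All genes had a median of -0.02. After IgG1 it was 0.11, with 46 of 67 positive, 68.7% against 44% of all genes. The median of all genes was then -0.03. In CD4 the medians were -0.03 after both antibodies, against -0.03 and -0.00 for all genes. The animals differed. In CD8 after anti-IL-15 the median change of the members ran from -0.29 in animal 1 to 0.44 in animal 4, and without animal 4 the median over members was 0.02. In CD8 after IgG1 it ran from -0.09 in animal 6 to 0.47 in animal 3. In animal 4 after anti-IL-15, the CD8 array had 80.6% of members above the mean of the CD8 samples; on it 11730 probes were detected, and the median deviation of all genes was -0.12.

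Markers of other cells were read beside these values. In CD8 after anti-IL-15, 9 monocyte and dendritic cell markers had a median change of 0.57, none past the threshold. Their summed intensity, in which CD68 was the brightest gene, had a median of 2211 before (1679 to 4064) and of 2403 after (1830 to 7832). Of 6 natural killer cell markers, GNLY alone passed, higher by 1.21 (limma, adjusted p = 0.043), where 0.174% of all genes passed. The sums of the 6 had a median of 996 before (649.2 to 1216) and of 1746 after (1168 to 1887). In CD8 after IgG1, 4 erythroid markers had a median change of 0.81, none past the threshold. Sorted CD8 cells numbered 30000 to 116000 before and 23000 to 95000 after anti-IL-15. Whether the T cells themselves expressed these markers was not tested, nor was the part of the markers or of the cell numbers in the members' changes.

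Comparing the changes themselves, 0 of 67 members differed between anti-IL-15 and IgG1 in CD8 (limma, background 0%, 3 members at an unadjusted p under 0.05 and 7.59% of all genes) and 0 of 67 in CD4 (background 0%, 0 at an unadjusted p under 0.05 and 3.76% of all genes). The members at an unadjusted p under 0.05 in CD8 were NDUFA5, NDUFV2 with 0.59 ± 0.20 and NDUFAF1 with 0.54 ± 0.25. The change in CD8 minus the change in CD4 after anti-IL-15 was positive for 53 of 69 members, 76.8% against 51.1% of all genes. The median of the members was 0.11, but 0 passed in limma (background 0%). NDUFA5 alone had an unadjusted p under 0.05 (3.62% of all genes). Before treatment, 0 of 67 members passed between the anti-IL-15 and IgG1 animals in CD8 or in CD4 (limma, background 0% in both). At an unadjusted p under 0.05 there were 0 members in CD8 (6.4% of all genes) and 7 in CD4 (11.5%). NDUFA7, an accessory subunit of complex I, led them with 0.66 ± 0.20 (adjusted p = 0.231).

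The mitochondrial groups read beside the members gave no call after antibody either. In CD8 and CD4, after anti-IL-15 and after IgG1, 0 genes passed in limma for assembly of the chain, the tricarboxylic acid cycle, the mitochondrial ribosome, biogenesis regulators, protein import and cytosolic ribosomal proteins. The values with the lowest p in CD8 after anti-IL-15 were 0.47 for HIGD1A, which binds cytochrome c oxidase, and -0.42 for the coactivator gene PPRC1 (adjusted p = 0.404 and 0.383).

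In several members most of the variance within a cell type lay between animals. Over the 48 samples, with the mean of each cell type taken off, the share of a member's variance that lay between the 12 animals had a median of 38%, and of 32.1% over all genes. The share exceeded the 90th percentile of all genes (60.5%) in 11 of 69 members. The 4 with the largest share were singled out after their values were seen. They are NDUFB9 with 97.9%, NDUFC1 with 96.5%, COX5B with 93.7% and UQCRH with 85.1%.

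NDUFB9, an accessory subunit of the membrane arm of complex I, lay between 9.83 and 11.66 in all samples of 10 animals. In the other 2, anti-IL-15 animal 6 and IgG1 animal 1, the 4 samples of each lay between 6.76 and 7.27 and between 6.91 and 7.25. No sample of those 2 animals came near the others, in either cell type, before or after antibody. For these 4 members the amount of a transcript and how well an animal's transcript pairs with the human probe cannot be told apart, so the values are probe signals. NDUFC1, another small accessory subunit of complex I, was detected in no sample of 7 animals, in 2 of 4 samples of anti-IL-15 animal 1 and in all 4 samples of 4 animals. It reached 7.15 to 7.45 in anti-IL-15 animal 5.

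COX5B, the zinc-binding subunit of cytochrome c oxidase, took levels of 9.84 to 11.09 in all samples of 5 animals and of 7.99 to 9.33 in all samples of the other 7. Of the 5 animals at the upper level, 4 were in the anti-IL-15 group, and before treatment the antibody groups differed by 0.86 ± 0.41 in CD8 (adjusted p = 0.763). Within animals COX5B was higher in CD8 than in CD4 before treatment by 0.36 ± 0.09 in 11 of 12 (adjusted p = 0.00478). UQCRH was high in IgG1 animal 1 (7.78 to 9.12) and in anti-IL-15 animals 5 (8.12 to 8.80) and 6 (7.87 to 8.40), and lay between 6.35 and 8.21 in the rest, so that these ranges overlapped. Fits with the animal as a block compare samples within an animal.

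**Figure D5:**
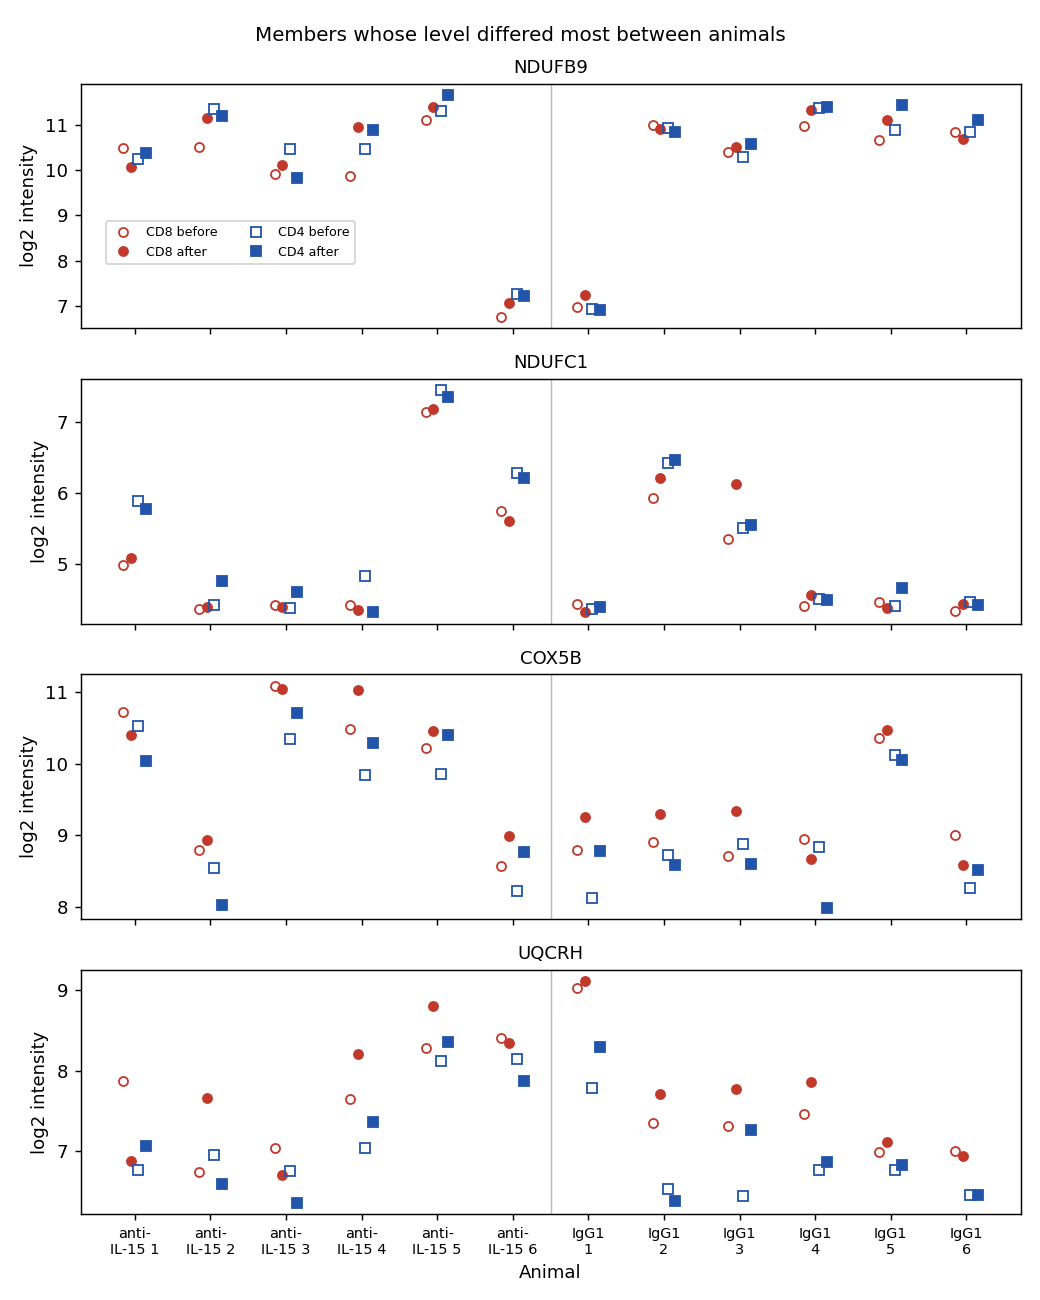
Each panel shows the log2 intensity of 1 member in the 4 samples of each of the 12 animals on the horizontal axis (red circles CD8, blue squares CD4; open before, filled after antibody). NDUFB9 is near 7 in all 4 samples of anti-IL-15 animal 6 and IgG1 animal 1 and near 10 to 11 in the others, and COX5B has 5 animals at an upper level.

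Members also varied across the samples of a cell type. Pearson correlations of log2 levels were taken across the 24 samples of a cell type, over the 2211 pairs of 67 members. Their median was 0.11 in CD8 and 0.05 in CD4, where pairs of all genes had 0.01 and 0.00. No group mean was taken off, so differences between groups enter these values. The samples also share animals and array normalization.

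Detection bounds what can be read from the array. Of the 69 members, 55 were detected in all 48 samples. Just inside the rule were NDUFV3, detected in 2 CD8 and 8 CD4 samples of 24 each, NDUFB10 in 11 and 8, and NDUFC1 in 8 and 10. Just outside were COX6B1 with 4 and 1, COX6B2 with 0 and 4, and NDUFB4 with 3 and 0. Probes of the muscle or tissue isoforms COX4I2, COX6A2, COX8C and COX7B2 did not pass, nor did those of COX7A2 and COX8A. For COX6A1, COX4I1 and COX7A1 no comparison of isoforms could therefore be made.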

How the data were processed

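RNA of sorted CD8 and CD4 TCM from 12 rhesus macaques (48 samples, 49 arrays) was selected for integrity and amplified from 50 ng, per the labels' protocols. The deposited non-normalized table holds mean bead intensity for 47230 probes and, per the file headers, a detection p-value for each. The deposited value table holds log2 values, of which 99.95% lay within 0.001 of the quantile-normalized log2 intensity recomputed here (47 arrays compared), with no background correction in it; limma is named in the submitters' processing notes, with no version. The human array names no genome build, so no coordinates are given; gene names come from the platform annotation (30113 probes with 1 symbol, 8 with several, 17109 with none).

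Intensities were background corrected from the detection p-values (offset 16), quantile normalized and log2 transformed (neqc, limma 3.58.1, R 4.3.3). The 49 readings of 0 were treated as missing. The 2 arrays of the repeated sample (r = 0.991 across genes) were averaged. A gene was represented by its probe with the highest mean among those detected (p below 0.05) in at least 6 of 24 samples of a cell type, giving 8614 genes for fits within CD8, 8916 within CD4 and 9355 across both. Models were fitted on all genes with lmFit and eBayes, the animal named in the labels being a fixed block, with Benjamini-Hochberg adjustment of every p-value across the genes of a fit (threshold 0.05). As a check of the pairing, deviations from the group mean were correlated within animals between times. The median r was 0.403 and 0.386 in CD8 and 0.223 and 0.401 in CD4 (anti-IL-15 and IgG1). The lowest r of a pair was 0.108 and 0.268 in CD8 and 0.00971 and 0.189 in CD4, so the check was weak for some pairs. The fits were tested on simulated data. The misspelt time label of the IgG1 samples was read as after treatment. A bound such as "at least 1.36-fold" sets the detected side's mean against the lowest detected signal of each undetected array, or the probe's own signal where higher.

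Members past the threshold were named, up to 12 in each direction; comparisons with under 5 such members have their 5 of smallest p given, besides isoform pairs, members near the detection rule and up to 3 genes of each list. The members, lists and naming rule were chosen with earlier results of these data known. The number of arrays limits the precision. Alternatives were the deposited values, offset 50, no filter, detection in 12 samples, the next brightest probe, a variance trend with robust moderation, the sorted cell count as covariate, no block, single arrays of the repeated sample and each animal left out; 2 were added after seeing the data, leaving out anti-IL-15 animals 3 and 4 and counting structural subunits only. The sorted cell count entered only fits within a cell type. Figures were drawn in Python 3.11.15 with matplotlib 3.10.9.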

Additional observations from a re-analysis of the deposited data

Results flagged for a closer look

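In 14 of 184 sets of 6 samples tested, over 22 members and their median, 1 sample lay apart from the other 5 by Dixon's test; chance gives about 1 in 20. Of these 14, 7 were NDUFB9, always low in the same animals. In anti-IL-15 animal 6 it was 7.27 in CD4 before treatment, 6.76 in CD8 before and 7.06 in CD8 after. In IgG1 animal 1 it was 6.93 and 6.91 in CD4 before and after, and 6.98 and 7.25 in CD8 before and after. The same IgG1 animal had a high UQCRH before treatment, at 7.78 in CD4 and 9.03 in CD8, where the other 5 animals of these groups lay at 6.44 to 6.77 and 6.99 to 7.47.

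ATP5PO was high in CD4 of IgG1 animal 4 before treatment, at 11.66 against 10.92 to 11.06. ATP5F1A was low in CD4 of anti-IL-15 animal 3 before treatment, at 11.80 against 12.78 to 12.95, on an array that stood apart from the other CD4 arrays. In CD8 after anti-IL-15, SDHD was 4.37 in animal 5 against 4.69 to 4.85, all below detection, and NDUFV2 was 12.39 in animal 6 against 11.66 to 11.92. The median deviation of the members from the CD8 mean was 0.20 in CD8 of anti-IL-15 animal 1 before treatment, against -0.15 to -0.03 in the other 5; that sample came from 30000 sorted cells.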

How the results depend on the processing

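Values were recomputed for the members that the naming rule above picked in each comparison. Of these 2161 values, 2122 kept their direction and side of the threshold, 36 kept the direction and lost the call, and 3 turned. For CD8 against CD4 before treatment the rule did not pick NDUFAF3, NDUFA11, ATP5IF1, ATP5MF, UQCRBP1, COX4I1 or COX5B. None of them held its call in all 22 settings, and these losses are not among the 36. UQCR10 in CD4 after anti-IL-15 was -0.13 on its next brightest probe, UQCRHL in the same comparison was -0.000946 with the sorted cell count as covariate, and ATP5F1A in CD8 against CD4 before treatment was 0.012 on its next brightest probe; none of these 3 passed the threshold then, and the cause was not tested. The count of members that differed between CD8 and CD4 before treatment was 29 and ran from 25 to 34 when each animal was left out. It was 32 on the deposited values or with a variance trend, 27 without a filter, and 22 with no replicate block (16 higher, 6 lower), the one setting that ignores the pairing of an animal's samples; after anti-IL-15 and after IgG1 the counts without the block were 22 and 21. The shares of all genes called in these other settings were not computed, so their counts have no background beside them. Of the 29 calls, 17 held in all 22 settings tried, while NDUFAF3 held in 10, NDUFA11 in 13, NDUFV3 in 15 and ATP5IF1 in 16. The sorted cell count as covariate is not among these 22, because it cannot be told apart from cell type. The next brightest probe was a different probe for only 5 of the 29, and 4 of these kept the sign of the difference on it. Of all 13 members with 2 or more detected probes, called or not, 8 kept the sign of the difference before treatment on the next probe. With each animal left out the median change in CD8 after anti-IL-15 ran from 0.02 to 0.16 and after IgG1 from 0.05 to 0.20. For the changes from before to after treatment within a cell type, 0 members passed in each setting tried. Dim members such as SDHD, COX7A1, NDUFA5, NDUFAF4 and NDUFV3 lay near background, where the background correction sets the size of a difference.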
